A study of Mus musculus with 9 samples.

Results

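The genes described here are 46 mouse regulators of chromatin: subunits of the Polycomb complexes, heterochromatin proteins, the enzymes that write, maintain and remove DNA methylation, histone deacetylases, nucleosome remodellers and a pair of histone demethylases. They were taken by gene symbol from a fixed list, which was chosen with earlier results of these data known. Shares of members called, set beside those of all genes, therefore describe this list and do not test it. All 46 were found among the 18193 genes with a value, through 112 probe sets. Of the 46, 43 passed the filter for testing, a value of at least 5 on at least 3 arrays, and Cbx3, Tet3 and Hdac7 did not.

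The 9 Affymetrix mouse arrays hold RNA of passage 3 neurospheres, which are free-floating colonies of dividing progenitor cells, from C57BL/6J embryos of embryonic day 12.5. The 3 sphere types had 3 arrays each, and every one was grown with bFGF and EGF, at 20 ng/ml each. The spheres named rNCSC came from dorsal root ganglia (DRG), the sensory ganglia that form from the neural crest, SCSC came from spinal cord, and BMP NCSC came from DRG and had the bone morphogenetic protein BMP4 in their medium as well, at 10 ng/ml. Whether replicate arrays stem from different cultures or embryos is not stated in the labels. A p-value here therefore reflects the spread among arrays alone, and that spread may be technical.

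Values are on the log2 scale, on which a difference of 1 is a change of 2-fold, and each is the signal of 1 probe set, so a level is compared between arrays and not between genes. Array medians lay between 3.99 and 4.03, and a value near 4 or below is at the lower end of the scale, where the size of a difference is uncertain. The labelled identity was checked against marker genes. The 4 neural crest markers (Sox10, Erbb3, Ngfr and Tfap2a) averaged 3.53 to 4.04 on the rNCSC arrays, although these spheres were grown from crest-derived ganglia, and 9.87 to 10.28 on the BMP NCSC arrays. The 4 markers of central nervous system (CNS) progenitors (Olig2, Pax6, Fabp7 and Zic1) averaged 11.73 to 12.01 in rNCSC, 11.76 to 11.90 in SCSC and 2.22 to 2.28 in BMP NCSC. The 4 cartilage and mesenchyme markers (Col2a1, Acan, Cnmd and Col3a1) averaged 2.80 to 3.05 in rNCSC and 12.83 to 13.36 in BMP NCSC. The 4 neuron markers averaged 3.85 to 5.11 in rNCSC, 4.73 to 5.09 in SCSC and 3.59 to 4.20 in BMP NCSC. Markers of microglia, endothelium and erythroid cells averaged 2.90 to 3.24 on every array, with none past the filter. In bulk RNA of this kind, fewer cells of a type and less RNA per cell cannot be told apart.

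Polycomb proteins keep developmental genes silent in the cells that should not use them. Polycomb repressive complex 2 (PRC2) methylates H3K27 through either of the alternative enzymes EZH2 and EZH1, of which EZH2 is known as the form of dividing cells and EZH1 as the form that persists in resting and differentiated cells. Polycomb repressive complex 1 (PRC1) reads that mark through its CBX proteins and ubiquitinates histone H2A. DNA methylation is copied onto the new strand after each round of replication by DNMT1, which UHRF1 brings to hemimethylated sites with the help of the remodeller HELLS, whereas DNMT3A and DNMT3B write new methylation and the TET enzymes oxidise it. In neural development, subunits of the BAF remodelling complex are exchanged as progenitors leave the cell cycle.

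Promoter sequences show where a known cell cycle motif lies in some of these genes. Promoters of 40 of the 46 members were found in a RefSeq table of assembly GRCm38.p6, which gives 250 bases before to 50 bases after each transcription start, 300 in all. Those of Hdac1, Hdac3, Cbx2, Chd3, Chd7 and Kdm6b were not used here. E2F factors control genes of DNA replication and are known to bind strings such as TTTCCCGC, TTTGGCGC, TTTCGCGC and TTTGCCGC, which were searched on both strands. At least 1 of these 4 strings was present in the promoters of 7 members (Ezh2, Suz12, Smarcd1, Cbx3, Uhrf1, Dnmt1 and Hells), against 2.26% of all 32851 promoters and 2.6% of the 27025 genes in the table. Singly, the 4 strings occurred in 1.07%, 0.514%, 0.323% and 0.441% of promoters. The cell cycle homology region, TTTGAA or TTCGAA, was present for 6 members (Eed, Suz12, Cbx7, Dnmt1, Dnmt3b and Hdac9). It occurs in 19.2% of all promoters and 21.7% of genes, TTTGAA in 17.9% and TTCGAA in 1.56% of promoters. A match is a description of letters and not a bound site. The stretch around an E2F string, in capitals, is printed 5′ to 3′ on the gene's own strand for the 4 such members with the greatest differences below, and a stretch of Ezh1 stands beside Ezh2 as its alternative in PRC2, with none of the 4 strings in its 300 bases. Positions count from the first transcribed base as 1, with negative numbers before it.
Ezh2: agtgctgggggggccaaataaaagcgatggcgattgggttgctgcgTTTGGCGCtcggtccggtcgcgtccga
Uhrf1: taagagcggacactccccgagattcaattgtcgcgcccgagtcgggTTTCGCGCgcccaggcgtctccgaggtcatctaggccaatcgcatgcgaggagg
Dnmt1: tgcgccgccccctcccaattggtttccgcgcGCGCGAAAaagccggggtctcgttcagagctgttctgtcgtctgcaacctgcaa
Hells: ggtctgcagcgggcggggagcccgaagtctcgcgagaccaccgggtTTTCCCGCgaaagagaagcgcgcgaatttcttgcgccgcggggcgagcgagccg
Ezh1: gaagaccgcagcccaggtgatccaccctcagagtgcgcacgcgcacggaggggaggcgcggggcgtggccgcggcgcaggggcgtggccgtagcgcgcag

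The Ezh2 stretch is chr6:47595001-47595073 on the minus strand, with its string at position 4, just inside the transcript. The table holds 2 starts for Uhrf1 and 3 for Dnmt1, of which 1 each is shown. The Uhrf1 stretch is chr17:56304082-56304181 on the plus strand, with its string at -185. The Dnmt1 stretch is chr9:20952789-20952873 on the minus strand. Its string TTTCGCGC lies on the opposite strand and so reads GCGCGAAA here, at -219. A Dnmt1 promoter also holds TTTGGCGC at 34, but which of the 3 starts that position counts from was not recorded. The Hells stretch is chr19:38930882-38930981 on the plus strand, with its string at -62, and the Ezh1 stretch is chr11:101226434-101226533 on the minus strand.

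DRG spheres grown without BMP4 were first set against DRG spheres grown with it. The genes of maintenance DNA methylation (Uhrf1, Hells, Dnmt1), the PRC2 enzyme gene Ezh2 and the remodeller genes Chd7 and Smarcd3 were higher in rNCSC. The other PRC2 enzyme gene, Ezh1, was higher in BMP NCSC, as were the PRC1 reader genes Cbx6 and Cbx7, the deacetylase genes Hdac9 and Hdac11 and the remodeller genes Smarca2 and Chd3. A gene was called when limma gave an adjusted p below 0.05 over all 10319 genes tested and a log2 difference of at least 1. Such a rule favours genes whose arrays do not overlap between groups. The share of all genes without overlap was not counted, so a lack of overlap, where given below, adds no support to a call. Of the 43 members tested, 15 (34.9%) were called higher in rNCSC, where 21.3% of all genes tested were, and 7 (16.3%) were called lower, where 22.6% of all genes were. Disregarding size, 37 members (86.0%) had an adjusted p below 0.05, against 77.9% of all genes. The median difference was 0.65 over the members and 0.07 over all genes tested.

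**Figure D1:**
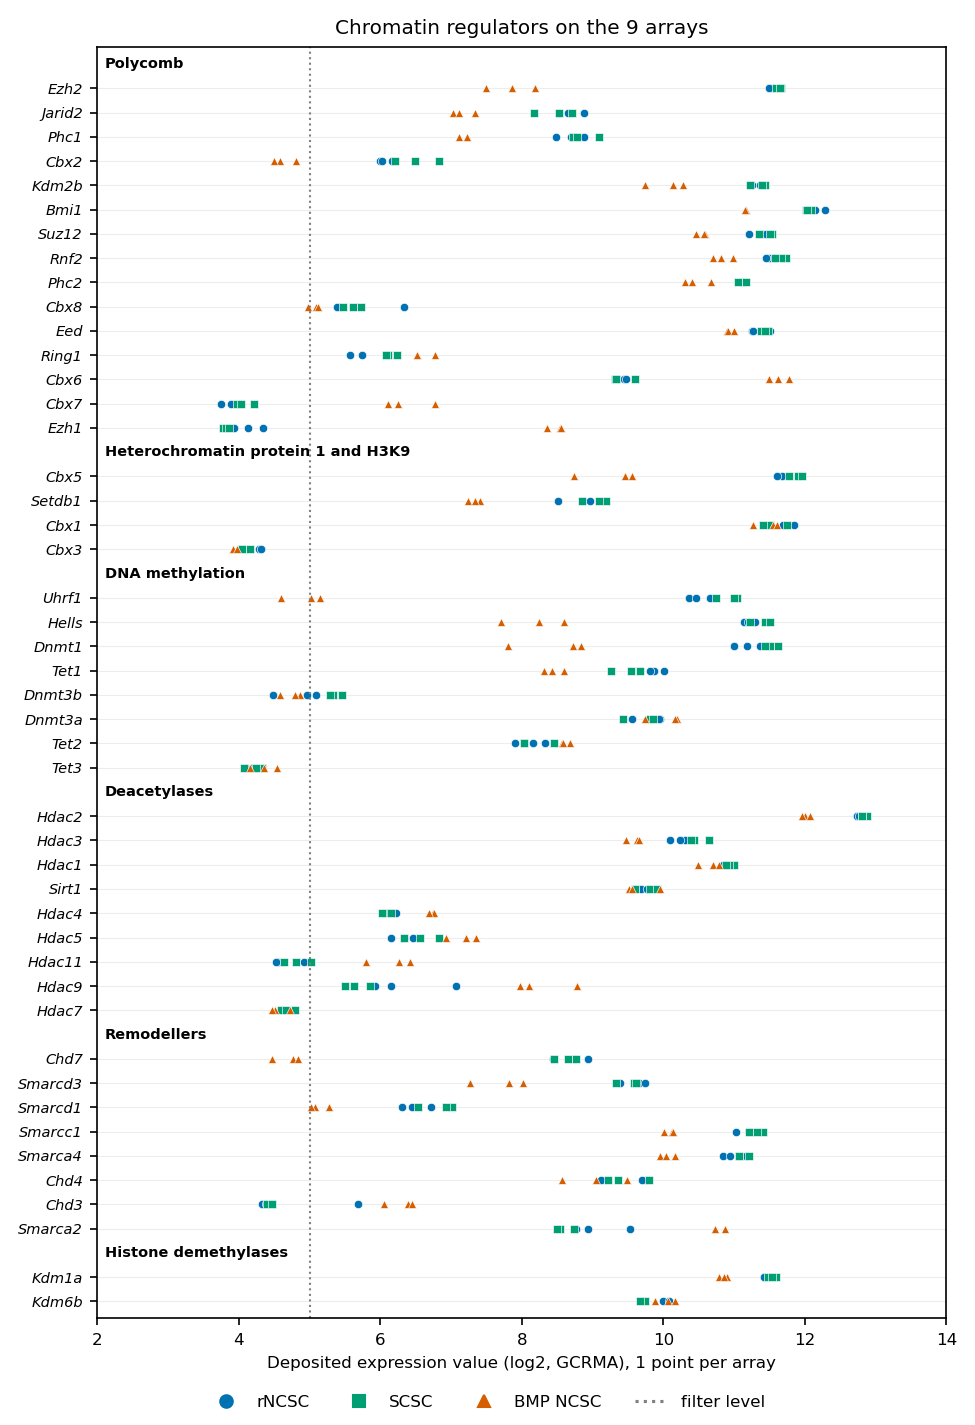
Deposited log2 expression value (horizontal axis) of each of the 46 members (rows, by class) on the 9 arrays, with 1 point per array in rNCSC (circles), SCSC (squares) and BMP NCSC (triangles); the dotted line marks the filter level of 5. The rNCSC and SCSC points lie close together in most rows, while the BMP NCSC points stand to the left for genes such as Ezh2, Uhrf1 and Chd7 and to the right for Ezh1, Cbx6, Cbx7 and Smarca2.

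Passing the filter fixed the direction of some calls. Ezh1 and Cbx7 reached 5 on the BMP NCSC arrays alone, so that they could hardly be called higher in rNCSC or SCSC. Cbx2, Dnmt3b and Chd7 reached it on rNCSC or SCSC arrays alone, so that the reverse holds for them. The other 38 tested members reached 5 on arrays of BMP NCSC and of at least 1 other group. Of these, Hdac11 and Chd3 reached it on all 3 BMP NCSC arrays and on only 1 other. They too passed because of BMP NCSC, where they are high, so that their lower calls carry the same limit. Uhrf1 reached it on only 2 BMP NCSC arrays and passed because of rNCSC and SCSC, where it is high. Its higher calls carry the reverse limit.

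The markers of proliferation moved with these results. All 11 with a value were called higher in rNCSC, and their mean level was 11.73 to 11.80 on the rNCSC arrays, 11.87 to 11.93 on the SCSC arrays and 6.30, 6.94 and 7.18 on the BMP NCSC arrays. Their part in the differences of the members was not tested. BMP NCSC array 1, where 10 of the 11 markers were lowest within that group, was also the lowest of the 3 for 10 of the 15 members called higher in rNCSC, Ezh2, Uhrf1, Dnmt1 and Hells among them. The other 5, Cbx2, Cbx5, Smarcd1, Smarcd3 and Chd7, were lowest on array 3. How often array 1 was the lowest over all genes was not counted, so nothing particular to the members can be read from this. Without BMP NCSC array 1, the differences between rNCSC and BMP NCSC were 3.53 for Ezh2, 5.41 for Uhrf1, 2.41 for Dnmt1 and 2.79 for Hells.

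**Figure D2:**
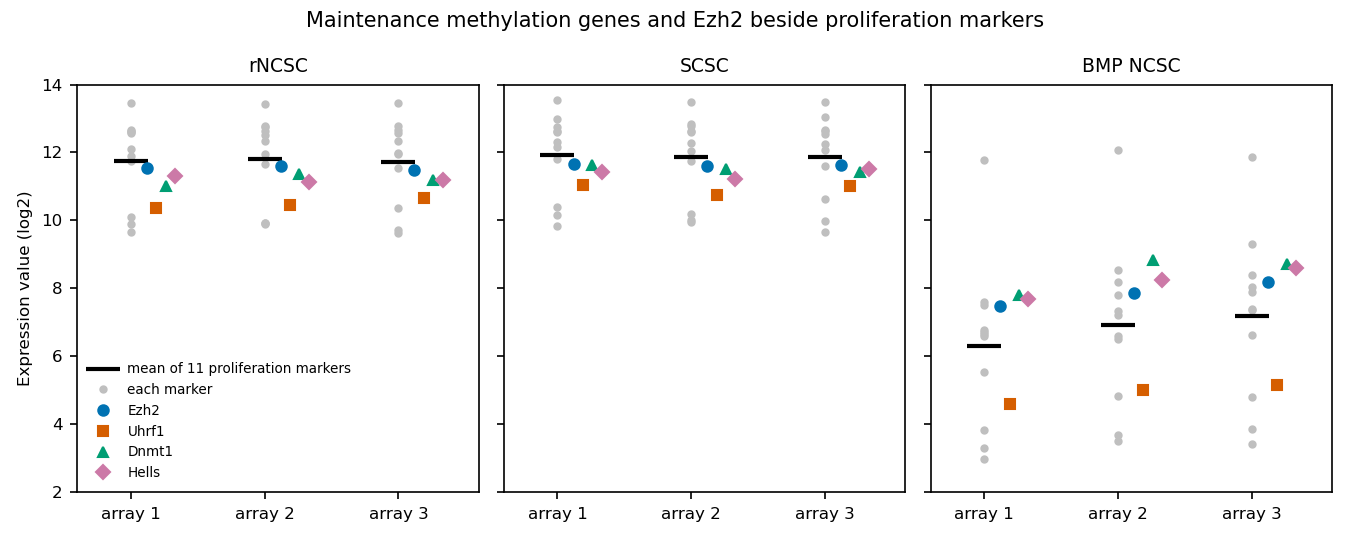
Log2 expression value on each array for Ezh2, Uhrf1, Dnmt1 and Hells (coloured symbols) beside the 11 proliferation markers (grey points) and their mean (black bars), in rNCSC, SCSC and BMP NCSC. The marker means lie between 11.73 and 11.93 in rNCSC and SCSC and between 6.30 and 7.18 in BMP NCSC, where the 4 genes are lower too; heights of different genes are not comparable with each other.

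All 3 genes of maintenance methylation were higher in rNCSC by more than 2 on the log2 scale. Uhrf1, whose protein recognises hemimethylated DNA and recruits DNMT1, was at 10.36, 10.47 and 10.66 on the rNCSC arrays and at 4.60, 5.02 and 5.15 on the BMP NCSC arrays. The groups lay far apart, and the BMP NCSC values stood close to the filter level. Uhrf1 passed the filter because of rNCSC and SCSC, and the size of its difference is uncertain at such low BMP NCSC values. The log2 difference was 5.58 (SE 0.16, 47.7-fold, limma adjusted p = 1.1e-08), the largest positive difference of any member, and a second Uhrf1 probe set gave 4.06. Dnmt1, the maintenance methyltransferase, was at 11.00, 11.37 and 11.18 in rNCSC and at 7.81, 8.83 and 8.72 in BMP NCSC, a difference of 2.73 (SE 0.25, 6.64-fold, adjusted p = 1.2e-05). Its other 2 probe sets gave 3.50 and 2.59. Dnmt1 stayed well above the filter level in BMP NCSC, and its 3 arrays there had an SD of 0.56. Hells, a remodeller needed for methylation of repeats, was at 11.30, 11.14 and 11.20 in rNCSC against 7.70, 8.24 and 8.60 in BMP NCSC, so that the groups did not overlap (difference 3.03, SE 0.20, adjusted p = 1.7e-06).

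The de novo methyltransferase genes did not follow Dnmt1. Dnmt3a was at 9.55, 9.95 and 9.94 in rNCSC and 10.19, 10.17 and 9.74 in BMP NCSC, and the arrays overlapped (difference -0.22, 95% interval -0.63 to 0.19, adjusted p = 0.28). Dnmt3b, also a de novo enzyme, lay near the filter level throughout, with an rNCSC mean of 4.84 ± 0.32 (SD, n = 3), a BMP NCSC mean of 4.75 ± 0.15 (SD, n = 3) and a difference of 0.09 (95% interval -0.28 to 0.46). Among the TET dioxygenases, which start the removal of methylation, Tet1 was at 9.87, 9.81 and 10.02 in rNCSC and 8.32, 8.60 and 8.43 in BMP NCSC, without overlap (1.45, SE 0.13, adjusted p = 1e-05). Tet2 went the other way by less than the size limit, with means of 8.13 ± 0.22 and 8.61 ± 0.063 (SD, n = 3 each, difference -0.49, adjusted p = 0.015). Tet3 was not tested, with means of 4.17, 4.22 and 4.35 in rNCSC, SCSC and BMP NCSC. In all, 4 of the 7 DNA methylation genes tested (57.1%) were called higher in rNCSC and 0 lower, against 21.3% and 22.6% of all genes.

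Within PRC2, the 2 alternative enzyme genes changed in opposite directions. Ezh2 was at 11.55, 11.62 and 11.49 in rNCSC, 11.67, 11.59 and 11.64 in SCSC and 7.49, 7.86 and 8.18 in BMP NCSC. Every BMP NCSC array was thus more than 3 units under every other array, and the difference from rNCSC was 3.71 (SE 0.16, 13.1-fold, adjusted p = 1e-07). Ezh1 was at 3.93, 4.13 and 4.34 in rNCSC, 3.77, 3.82 and 3.87 in SCSC and 8.35, 8.55 and 8.55 in BMP NCSC. It was at the lower end of the scale in spheres grown without BMP4 and well expressed in those grown with it (-4.35, SE 0.12, adjusted p = 7.9e-09), the most negative difference of any member. Ezh1 passed the filter through BMP NCSC alone, which fixed its direction, and the size is uncertain against such low values. The 3 other Ezh1 probe sets did not pass the filter and gave -1.41, -0.23 and -0.14. Their means over the 9 arrays were 3.89, 2.85 and 2.78, at the lower end of the scale, so they add no support.

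The remaining core of PRC2 changed little beside its enzymes. Eed, which binds methylated H3K27 and stimulates the enzyme, had means of 11.34 ± 0.14 in rNCSC and 10.94 ± 0.051 with BMP4 (SD, n = 3 each, difference 0.40, adjusted p = 0.0036). Suz12, the scaffold subunit, was at 11.35 ± 0.13 and 10.54 ± 0.067 (n = 3 each, 0.81, adjusted p = 7.5e-05). Neither reached the size limit, although the probe set of Suz12 with the largest variance gave 1.16. Jarid2, a cofactor that guides PRC2 to its targets, was at 8.53, 8.65 and 8.88 in rNCSC and 7.02, 7.34 and 7.11 in BMP NCSC, and was called higher in rNCSC (1.53, SE 0.16, adjusted p = 2.8e-05).

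The PRC1 reader genes were divided. Cbx6 was at 9.35, 9.45 and 9.47 in rNCSC and 11.49, 11.63 and 11.77 in BMP NCSC, and Cbx7 at 3.89, 4.01 and 3.75 in rNCSC and 6.25, 6.78 and 6.10 in BMP NCSC. Both were without overlap and lower in rNCSC, by -2.20 (SE 0.11, adjusted p = 3.3e-07) for Cbx6 and -2.50 (SE 0.17, adjusted p = 2.1e-06) for Cbx7. Cbx2, a further reader that compacts chromatin, ran opposite to them at 6.00, 6.16 and 6.02 in rNCSC and 4.58, 4.81 and 4.50 in BMP NCSC (1.43, SE 0.16, adjusted p = 4e-05). Cbx8 had a smaller difference of 0.65 (adjusted p = 0.031), with rNCSC array 1 at 6.33 apart from 5.41 and 5.38 on the others.

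Other PRC1 genes were higher in rNCSC or fell short of the size limit. Phc1, which polymerises PRC1 through its SAM domain, was at 8.48, 8.88 and 8.70 in rNCSC and 7.11, 7.22 and 7.22 in BMP NCSC (1.50, SE 0.13, adjusted p = 9.8e-06). Kdm2b, which brings a variant PRC1 to unmethylated CpG islands, was at 11.23, 11.36 and 11.25 against 9.74, 10.13 and 10.27 (1.23, SE 0.14, adjusted p = 4.9e-05). No array of either gene overlapped between the groups. Bmi1, a PRC1 core subunit needed for self-renewal of neural stem cells, lay just under the limit at 0.99, with 12.28, 12.14 and 12.05 in rNCSC and 11.17, 11.17 and 11.15 in BMP NCSC. It came to 1.04 without rNCSC array 3. The E3 ligase gene Rnf2 (0.67, adjusted p = 0.00022) and Phc2 (0.66, adjusted p = 0.00042) also differed by less than the limit, and Ring1, which encodes the alternative ligase to RNF2, ran the other way (-0.80, adjusted p = 0.00085). Over the 15 Polycomb members, 5 (33.3%) were called higher in rNCSC and 3 (20.0%) lower, with a median difference of 0.67, where 21.3% and 22.6% of all genes tested were called. All 15 had an adjusted p below 0.05, as did 77.9% of all genes.

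**Figure D3:**
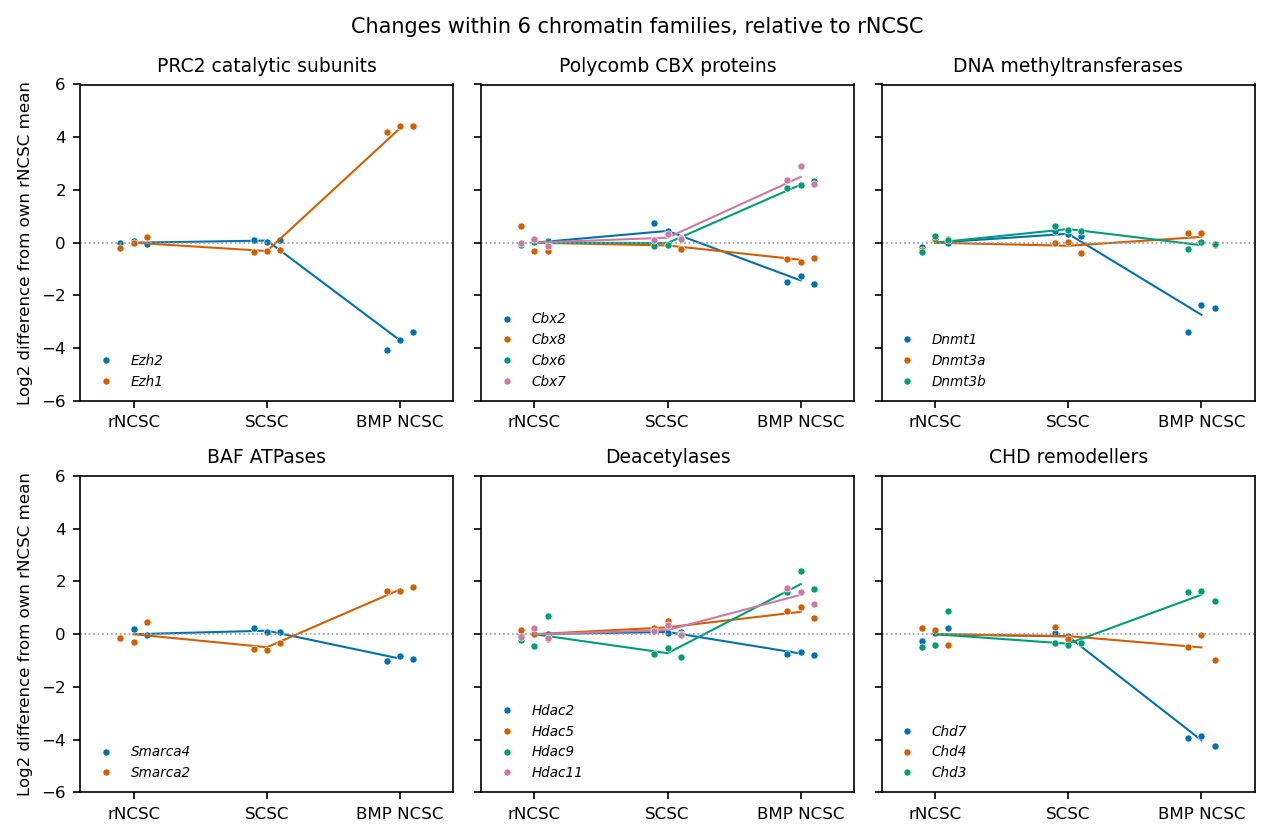
Log2 difference of each array from the gene's own rNCSC mean (vertical axis) for members of 6 families in rNCSC, SCSC and BMP NCSC, with points for arrays and lines joining group means. Ezh1 lies 4.35 above and Ezh2 3.71 below its rNCSC mean in BMP NCSC, Cbx6 and Cbx7 part from Cbx2, and Smarca2 and Chd3 part from Smarca4 and Chd7.

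Heterochromatin protein 1 (HP1) binds methylated H3K9, and its genes share the Cbx name without being Polycomb genes. Cbx5 (HP1 alpha) was at 11.68, 11.90 and 11.60 in rNCSC and 9.45, 9.56 and 8.74 in BMP NCSC, with every rNCSC array above every BMP NCSC array (2.48, SE 0.20, adjusted p = 6.4e-06). Cbx1 (HP1 beta) was at 11.70, 11.51 and 11.85 in rNCSC and 11.55, 11.27 and 11.61 in BMP NCSC, overlapping (0.21, 95% interval -0.11 to 0.53). Its other probe sets that passed the filter gave 0.70 and 0.83, under the size limit. Their limma p, adjusted over all probe sets tested, was 7.8e-05 and 5e-05. Cbx3 (HP1 gamma) was represented by 1 dim probe set, at 4.30, 4.08 and 3.94 in rNCSC, SCSC and BMP NCSC, since 4 others carry a further gene symbol and were left out. Its level is therefore not known from these values. Setdb1, an H3K9 methyltransferase that silences retroelements, was at 8.86, 8.97 and 8.51 in rNCSC and 7.23, 7.40 and 7.34 in BMP NCSC (1.46, SE 0.14, adjusted p = 1.6e-05). Its difference was 0.90, and not called, with the mean of its probe sets, of which the other 2 did not pass the filter.

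Deacetylases remove acetyl groups from histones and other proteins. The class I genes Hdac1, Hdac2 and Hdac3, the catalytic subunits of the large corepressor complexes, were all somewhat higher in rNCSC and none was called. Hdac2 was at 12.74 ± 0.015 and 12.01 ± 0.06 (n = 3 each, 0.74, adjusted p = 2.3e-05), Hdac3 differed by 0.62 (adjusted p = 0.00057) and Hdac1 by 0.26 (adjusted p = 0.036). Hdac4, Hdac5, Hdac9 and Hdac11 ran the other way. Hdac9, which encodes a class II enzyme that acts with MEF2 factors, was at 6.15, 5.92 and 7.06 in rNCSC and 7.97, 8.77 and 8.10 in BMP NCSC. The groups did not overlap, although rNCSC array 3 stood above its fellows (-1.90, SE 0.31, adjusted p = 0.0005, and -0.94, not called, with the mean of its 2 probe sets, of which the other did not pass the filter). Hdac11, the class IV gene, was at 4.55, 4.92 and 4.53 in rNCSC and 6.42, 6.26 and 5.80 in BMP NCSC (-1.50, SE 0.19, adjusted p = 8.5e-05), and its second probe set gave -0.75, under the size limit. Hdac4 (-0.56, adjusted p = 0.00017) and Hdac5 (-0.85, adjusted p = 0.0012) were lower in rNCSC without reaching the limit. Hdac7 was not tested, with group means between 4.57 and 4.69. Sirt1, an NAD-dependent deacetylase, overlapped between the groups (0.01, 95% interval -0.31 to 0.32). Of the 8 deacetylases tested, 0 were called higher in rNCSC and 2 lower (25%), the latter near the 22.6% of all genes.

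The ATPase genes of the BAF complex, which slides and ejects nucleosomes, differed from each other. Smarca2 (BRM) was at 8.94, 8.77 and 9.53 in rNCSC and 10.73, 10.74 and 10.87 in BMP NCSC, with no overlap (-1.70, SE 0.18, adjusted p = 3.7e-05). Smarca4 (BRG1), the alternative ATPase and the one needed for neural stem cell maintenance, was at 10.84, 11.17 and 10.94 in rNCSC and 9.95, 10.17 and 10.04 in BMP NCSC. That difference of 0.93 (SE 0.11, adjusted p = 6.4e-05) was not called, while its second probe set gave 1.30, which would be. The core subunit gene Smarcc1 (BAF155) lay just inside the limit, at 11.02, 11.26 and 11.20 against 10.01, 10.13 and 10.13 (1.07, SE 0.098, adjusted p = 1.2e-05). The accessory subunit genes Smarcd1 (BAF60A) and Smarcd3 (BAF60C) were both called higher in rNCSC. Smarcd1 was at 6.31, 6.71 and 6.44 in rNCSC and 5.07, 5.27 and 5.02 in BMP NCSC (1.36, adjusted p = 5.2e-05). Smarcd3, which takes part in neural as well as heart development, was at 9.39, 9.65 and 9.73 against 7.82, 8.01 and 7.27 (1.89, adjusted p = 2.4e-05). In neither did the arrays of the groups overlap.

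Among the CHD remodellers, Chd7, which is mutated in CHARGE syndrome and acts in neural crest as well as in CNS progenitors, was at 8.44, 8.76 and 8.94 in rNCSC and 4.76, 4.84 and 4.47 in BMP NCSC. All 3 BMP NCSC arrays were under the filter level, and the fitted difference was 4.02 (SE 0.16, adjusted p = 6.8e-08). Its size is uncertain at such low values, and its direction was fixed by the filter. Chd3 and Chd4 encode alternative ATPases of the NuRD complex, which joins remodelling to deacetylation. Chd3 was at 4.33, 4.39 and 5.69 in rNCSC and 6.39, 6.45 and 6.05 in BMP NCSC, so that rNCSC array 3 stood close to the other group (-1.49, SE 0.33, adjusted p = 0.0027, and -1.94 without that array). Chd4 was at 9.53 ± 0.36 and 9.03 ± 0.47 (n = 3 each) with overlapping arrays (0.50, 95% interval -0.12 to 1.12). Its other probe sets gave 0.30 and 0.72, under the size limit. Their limma p, adjusted over all probe sets tested, was 0.044 and 0.028. Of the 8 remodellers, 4 were called higher in rNCSC, against 21.3% of all genes, and 2 (25%) lower, near the 22.6% of all genes.

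Neither histone demethylase was called. Kdm1a, which removes H3K4 methylation, had means of 11.44 ± 0.027 in rNCSC and 10.85 ± 0.061 with BMP4 (SD, n = 3 each, difference 0.59, adjusted p = 0.00011). Kdm6b, which removes the Polycomb mark from H3K27, was at 10.00, 10.08 and 9.70 in rNCSC and 10.06, 10.16 and 9.88 in BMP NCSC, overlapping (-0.11, 95% interval -0.38 to 0.17).

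SCSC were next set against the same BMP NCSC arrays, a comparison that combines tissue of origin with BMP4 and shares those arrays with the first. Of the 43 members, 16 (37.2%) were called higher in SCSC, where 24.0% of all genes tested were, and 7 (16.3%) lower, where 22.9% were. At any size, 38 (88.4%) had an adjusted p below 0.05, where 79.7% of all genes did. The median difference was 0.68 over the members and 0.10 over all genes. Smarca4, which missed the limit in the first comparison, was called here, with SCSC arrays at 11.21, 11.07 and 11.07 (1.06, SE 0.11, adjusted p = 2.5e-05). As in the first comparison, all 11 proliferation markers were higher in SCSC, and their part in the result was not tested.

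Side by side, Uhrf1 was at 11.04, 10.75 and 11.00 in SCSC and differed from BMP NCSC by 6.01 (64.3-fold, adjusted p = 6.8e-09), against 5.58 for rNCSC. Ezh1 differed by -4.66 and Ezh2 by 3.79, against -4.35 and 3.71. Dnmt1, at 11.62, 11.51 and 11.44 in SCSC, differed by 3.07 and Hells, at 11.44, 11.23 and 11.51, by 3.21. The BMP NCSC values behind each pair of differences are the same. Chd7 was at 8.77, 8.66 and 8.45 in SCSC (3.93), Cbx5 at 11.91, 11.96 and 11.77 (2.63), Smarcd3 at 9.59, 9.61 and 9.33 (1.81) and Cbx2 at 6.82, 6.49 and 6.21 (1.88). Of these genes no SCSC array overlapped the BMP NCSC arrays, which the rule for calling favours. Setdb1 was at 9.19, 9.08 and 8.86 (1.72, and 0.94, not called, with the mean of its probe sets), Phc1 at 9.09, 8.73 and 8.78 (1.68), Smarcd1 at 7.01, 6.92 and 6.53 (1.70) and Jarid2 at 8.53, 8.70 and 8.18 (1.31). Kdm2b was at 11.43, 11.22 and 11.40 (1.31) and Smarcc1 at 11.41, 11.21 and 11.33 (1.22).

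Tet1 was the call nearest the limit, at 9.26, 9.54 and 9.68 in SCSC (1.04, adjusted p = 7.8e-05). It was not called without SCSC array 3 (0.95) or BMP NCSC array 1 (0.98), nor with the mean of its probe sets (0.90). The genes lower in SCSC were Cbx6 at 9.31, 9.33 and 9.60 (-2.22), Cbx7 at 3.97, 4.21 and 4.03 (-2.31), Hdac9 at 5.63, 5.85 and 5.50 (-2.62), Smarca2 at 8.54, 8.49 and 8.73 (-2.19), Chd3 at 4.46, 4.39 and 4.47 (-1.85) and Hdac11 at 4.81, 5.02 and 4.64 (-1.34), besides Ezh1. Every SCSC array of these genes was under every BMP NCSC array, which the rule for calling favours and which adds no support. Hdac9, Smarca2 and Chd3 had tight values in SCSC, with SDs of 0.18, 0.13 and 0.042, where rNCSC had 0.60, 0.40 and 0.77. Of the members not called here, Dnmt3b was at 5.46, 5.33 and 5.29 in SCSC and above BMP NCSC by 0.61 (adjusted p = 0.0072). Dnmt3a (-0.34, adjusted p = 0.11), Cbx8 (0.54, adjusted p = 0.058), Chd4 (0.43, adjusted p = 0.18), Cbx1 (0.08, adjusted p = 0.61) and Sirt1 (0.10, adjusted p = 0.53) did not pass the test at any size with the probe set used. On other probe sets, with limma's p adjusted over all probe sets tested, Cbx1 gave 0.70 (adjusted p = 7.1e-05) and 0.90 (adjusted p = 2.8e-05). Chd4 likewise gave 0.33 (adjusted p = 0.029) and 0.53 (adjusted p = 0.088), all under the size limit.

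**Figure D4:**
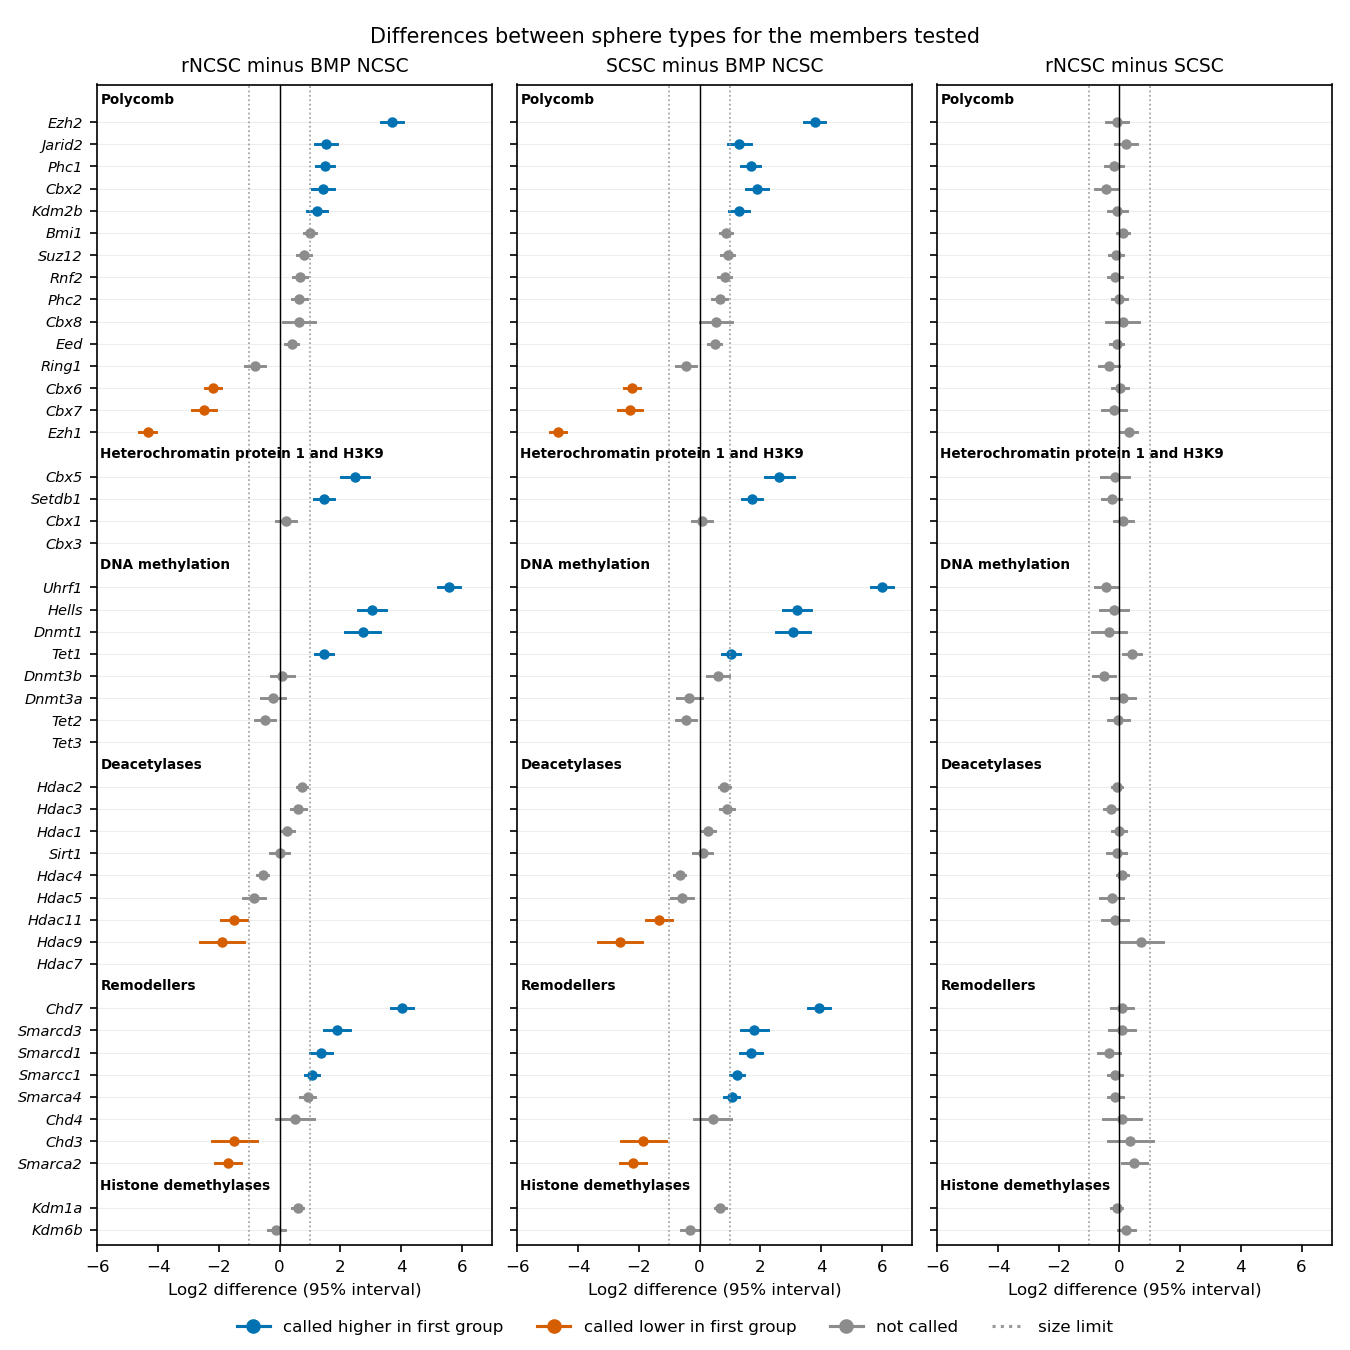
Log2 difference (points) with its 95% interval (lines) for the 43 members tested, in rNCSC against BMP NCSC, SCSC against BMP NCSC and rNCSC against SCSC; colour marks calls and dotted lines the size limit of 1. The 3 untested members have empty rows. The first 2 panels, which share the BMP NCSC arrays, run from -4.66 to 6.01, and in the last panel all points lie between -0.52 and 0.72.

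The direct comparison of rNCSC with SCSC asked whether spheres of ganglia and of spinal cord differ when grown alike. limma called 0 of the 43 members in either direction, and 1 of 10319 genes (0.00969%) over all. The smallest adjusted p among the members was 0.24. At an unadjusted p below 0.05 there were 9 members, against 13.7% of all genes, and 8 with limma's trend and robust options, which also called 0. Differences ranged from -0.52 (Dnmt3b) to 0.72 (Hdac9), and 41 of the 43 were smaller than 0.5 in size. For 41 members the 95% interval lay within 1 on either side of 0, the exceptions being Hdac9 (0.01 to 1.43) and Chd3 (-0.39 to 1.11), both with rNCSC array 3 above the other arrays.

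The 9 members with the smallest unadjusted p are given as values that failed the correction. Uhrf1 (-0.43), Dnmt3b (-0.52), Cbx2 (-0.45), Hdac3 (-0.28) and Ring1 (-0.34) were lower in rNCSC. Hdac9 (0.72), Smarca2 (0.49), Tet1 (0.40) and Ezh1 (0.32) were higher. Among these 9, rNCSC and SCSC arrays overlapped for Ring1 and for no other. Picking genes by a small p favours such separation, and its share over all genes was not counted, so it adds no support. Adjusted p lay between 0.24 and 0.36, so these differences were not shown beyond the spread between arrays. The gene with the greatest contrast against BMP NCSC among the Polycomb members, Ezh1, was thus under the filter level in both, and Ezh2 differed by -0.08 (95% interval -0.44 to 0.28).

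Probe sets of the same gene mostly gave the same call. In rNCSC against BMP NCSC, 12 called members had further probe sets that passed the filter, 19 in all, of which 18 were called in the same direction, 0 in the other, and 1 (Hdac11) was not called. In SCSC against BMP NCSC, 18 of 20 were called in the same direction, 0 in the other, and 2 (Hdac11 and Tet1) were not. Members that were not called had 21 further probe sets tested in the first comparison and 20 in the next, of which 3 were called in each, from Suz12, Phc2 and Smarca4 in the first and from Suz12 and Phc2 in the next. For Ezh2 there was a single probe set.

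A wider list of chromatin genes was measured for context, 103 in number, of which 96 had a value and 87 were tested. In rNCSC against BMP NCSC, 11 (12.6%) were called higher and 13 (14.9%) lower (median difference 0.08), where 21.3% and 22.6% of all genes were. In SCSC against BMP NCSC it was 16 (18.4%) higher and 17 (19.5%) lower (median 0.16), where 24.0% and 22.9% of all genes were, while 0 were called between rNCSC and SCSC. Against 22.6% lower and 21.3% higher over all genes, its 15 further Polycomb genes held 5 lower in rNCSC (33.3%) and 0 higher. These included the PRC2 accessory genes Phf1 (-2.56) and Aebp2 (-1.42), Scmh1 (-1.36) and the H3K27 demethylase gene Kdm6a (-1.26). Scmh1 passed the filter through BMP NCSC alone, so that it could hardly have been called higher. Among 10 further DNA methylation genes, Gadd45a (-3.45), a stress-induced gene linked to demethylation, and the methyl-CpG binding gene Mbd2 (-1.27) were lower in rNCSC (20.0%). Mbd3 (2.12), a NuRD subunit, was higher (10.0%). Of 19 genes of histone lysine methylation, 3 (15.8%) were higher in rNCSC and 0 lower, both under the 21.3% and 22.6% of all genes. Suv39h2, an H3K9 methyltransferase that makes the mark HP1 binds, was at 8.72 ± 0.47 in rNCSC, 8.87 ± 0.19 in SCSC and 2.89 ± 0.18 in BMP NCSC (n = 3 each). It was under the filter level on every BMP NCSC array and passed through the other groups alone, which fixed its direction, and its size against so low a value is uncertain. Kmt5a (1.48) and Dot1l (1.38) were the others.

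Further remodeller genes were called higher in rNCSC for 5 of 30 (16.7%) and lower for 4 (13.3%), where 21.3% and 22.6% of all genes were. Baz1a (2.90) and the BAF subunit gene Bcl7a (2.53) were higher, and Smarca1, the ISWI ATPase of differentiating neural cells, was lower (-3.09). Dpf1 (BAF45B), a BAF subunit of neurons, was at 7.07 ± 0.38 in rNCSC, 7.61 ± 0.39 in SCSC and 3.72 ± 0.16 in BMP NCSC (SD, n = 3 each). Its higher call was fixed by the filter like that of Suv39h2, and its size is uncertain too. Among 11 further deacetylase and corepressor genes, Rcor2 (2.14), a partner of KDM1A, and Hdac6 (1.07) were higher (18.2%) and Sirt5 (-1.69) lower (9.09%). The cell cycle inhibitor genes Cdkn2a and Cdkn2b are classic targets of Polycomb repression. Cdkn2b was at 5.75, 6.46 and 4.82 in rNCSC, 5.26, 5.57 and 5.48 in SCSC and 10.57, 10.22 and 10.06 in BMP NCSC, and every array of the last group stood above all others (-4.61 for rNCSC, SE 0.36, adjusted p = 4.4e-06, and -4.85 for SCSC). Cdkn2a was at 6.29, 6.25 and 5.16 in rNCSC, 4.92, 5.13 and 5.00 in SCSC and 6.94, 5.71 and 6.91 in BMP NCSC. Its rNCSC and BMP NCSC arrays overlapped (-0.62, adjusted p = 0.17), and it was called lower in SCSC than in BMP NCSC (-1.50, adjusted p = 0.0063).

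The promoter strings printed above were set against these calls as a description only. An E2F string was present for 5 of the 13 members called higher in rNCSC that have a promoter in the table (Ezh2, Uhrf1, Dnmt1, Hells and Smarcd1). It was present for 2 of the 27 others (Suz12 and Cbx3) and for 2.6% of all genes in the table. The cell cycle homology region was present for 1 of the same 13 (Dnmt1). Among the 27 others, Eed, Suz12, Cbx7, Dnmt3b and Hdac9 had it, as did 21.7% of all genes. The other 8 called higher, Jarid2, Phc1 and Kdm2b among them, had none of the 4 E2F strings in these 300 bases. No E2F string was found for Ezh1, Cbx6 or Cbx7.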

How the data were processed

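The authors deposited log2 values, 1 per probe set. The submitters' processing notes name GCRMA (version: not given in the sources used here). This method corrects background by probe sequence and makes array distributions alike, so a change in total RNA per cell would not show, and unexpressed genes gather at low values. Per the labels' protocols, TRIzol RNA was labelled as biotinylated cRNA.

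The table held 45101 probe sets, 64 of them controls. In the platform annotation 34945 had 1 symbol, 932 with several were dropped, and 9160 were unnamed. Of the 18193 genes, 9010 had more than 1 probe set, and the brightest by its 9-array mean stood for the gene. Genes reaching 5 on at least 3 arrays were tested, 10319 in all, with limma 3.58.1 in R 4.3.3, group means of all 9 arrays in 1 model (degrees of freedom: 6 residual, 2.38 prior). P-values are two-sided and were adjusted by Benjamini-Hochberg across every gene tested. Differences are first-named minus second-named group, with SE and 95% interval from that fit. The fit was tested on simulated data with independent noise and few changed genes, and without the size limit. Calls at the size limit were not tested in this way.

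Members and lists were chosen with earlier results of these data known. All 46 members are accounted for by class; array values are given for called members and those nearest the size limit, and at most 4 called genes with the greatest difference are named per class of the wider list. Titles number replicates 1 to 3 in each group and were not taken as pairs, since the labels tie them to no shared culture or litter. Alternatives were the filter, the choice of probe set, the size limit, median centring, the variance model, the arrays fitted, a replicate block and leaving out each array.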

Additional observations from a re-analysis of the deposited data

How the results depend on the processing

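No member's call reversed under any alternative tried. Of 45 called differences, 4 were lost under at least 1 alternative (Setdb1 in both comparisons with BMP NCSC, Hdac9 in rNCSC and Tet1 in SCSC), and 6 were gained by alternatives other than dropping the size limit (Suz12, Bmi1, Phc2 and Smarca4 in rNCSC, Suz12 and Phc2 in SCSC). With no size limit, rNCSC against BMP NCSC had 26 members higher and 11 lower, and SCSC had 26 and 12, since smaller differences then count. With the filter at 7, 4 members were lower in each comparison, because Cbx7, Chd3 and Hdac11 were no longer tested. With the mean of probe sets, 4 were lower in rNCSC, because Ezh1 and Cbx7 were no longer tested and Hdac9 missed the limit. Leaving out each array left 15 to 16 members higher in rNCSC against BMP NCSC and 7 lower, 15 to 16 and 7 for SCSC, and 0 between rNCSC and SCSC. With the replicate number as a block the counts were 15 and 7, 16 and 7, and 0, and no member's call changed; the labels tie the number to nothing shared. Deviations of the 9 same-numbered pairs of arrays from different groups were all positively correlated (r from 0.0424 to 0.298), 5 of them over 0.1, against -0.245 to 0.118 for the 18 other pairs, and 8 of 9 arrays correlated best with their own number in both other groups. This is a hint from the data and not the design. With 3 arrays a group, and GCRMA values compressed near 4, small differences and those of dim probe sets such as Cbx3, Tet3 and Hdac7 could not be resolved.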
